A study of Homo sapiens with 9 samples.

Results

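The lysosome genes described here were 134 of the 33861 genes in the deposited table of HCT116 cells, a human colorectal carcinoma line. A gene was taken where the KEGG column of that table listed the lysosome pathway or where its symbol was that of a V-ATPase subunit, and this rule itself uses no measured value. The pathway gave 121 genes and the subunit names gave 20, of which 7 were in both. RNA was sequenced from 9 libraries in 3 groups of 3. The control group (NC) received no factor, the activin group received 100 ng/mL activin A for 5 days, and the activin + HGF group received the same activin course followed by 20 ng/mL hepatocyte growth factor (HGF) for a further 5 days. The culture time of the control cells is not stated in the sources used here, nor is it stated whether activin stayed in the medium during HGF, so treatment and time in culture cannot be told apart. Nothing says that the 3 libraries of a group came from separate cultures, and p-values then measure only the spread between these libraries, which may be technical.

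Lysosomes are acidic compartments in which proteins, glycans, lipids and nucleic acids are broken down. The V-ATPase acidifies them: its cytosolic V1 sector hydrolyses ATP and its membrane V0 sector passes protons. Most hydrolases receive a mannose-6-phosphate tag in the Golgi apparatus and are sorted by mannose-6-phosphate receptors and coat adaptors. The transcription factors TFEB, TFE3, MITF and TFEC bind an E-box motif in the promoters of many of these genes, and mTORC1 signalling on the lysosomal surface holds TFEB and TFE3 in the cytoplasm. In cancer cells several of the proteases, cathepsin B and cathepsin L among them, are also known to be secreted.

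Values per library are given as CPM, the counts of a gene relative to library size after edgeR's TMM scaling. Changes are log2 fold changes from edgeR's quasi-likelihood fit, given in log2 units with a standard error (SE) and a p adjusted over all tested genes. The test returns no SE, so it was derived as the absolute log2 fold change divided by the square root of the test's F statistic. Levels of different genes are compared only as FPKM, which is corrected for gene length. Depth was 57453977 to 77016167 counts per library. Over all 9 libraries, 113 of the 134 genes had a mean of at least 1 FPKM and 45 had at least 10 FPKM, with a median of 4.71 FPKM. PSAP, the precursor of the saposins that help sphingolipid hydrolases reach their substrates, had the highest mean level at 364 FPKM. Next among the soluble proteins came CTSL at 68.9 FPKM and CTSD at 52.95 FPKM, the cysteine protease cathepsin L and the aspartic protease cathepsin D. The lysosome genes together took 0.835% to 0.866% of the counts in the control libraries and 0.966% to 0.996% in the activin libraries. In the activin + HGF libraries they took 1.08% to 1.16%, and the ranges of the 3 groups did not overlap. This share is a sum in which abundant genes weigh most. Scaled by library totals, as this share is, the median log2 fold change of the lysosome genes against control was 0.07 with activin. It was 0.01 with activin + HGF, while PSAP was at 1.06 and 1.71.

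The filter on low counts kept 130 of the 134 genes. GALC, ACP5, CTSF and CTSE were not tested, and each lay at 0 in at least 6 of the 9 libraries. Markers of colon epithelium were read in each library. The summed level of 9 colon epithelium markers was 668 to 722 FPKM in control, 556 to 759 FPKM in activin and 645 to 876 FPKM in activin + HGF libraries. Most of this sum came from KRT8, KRT18, KRT19 and EPCAM, which epithelia in general express, so it cannot check colon origin. Within that list CDX1 and VIL1 held 0 to 19 counts per library, CDX2 lay at 1.57 to 5.41 FPKM and KRT20 at 0.35 to 2.64 FPKM. With activin KRT20 was lower than control at −1.63 ± 0.41 log2 units (SE, adjusted p = 0.0203). CDH1 was higher by 0.91 ± 0.25 log2 units (SE, adjusted p = 0.0316). Activin library 2 and activin + HGF library 1 stood somewhat apart, with mean correlations of 0.970 and 0.971 with their own groups against 0.977 to 0.988 for the other 7 libraries.

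The first comparison asked what activin changed. Of the 130 tested genes, 15 rose and 16 fell at an adjusted p under 0.05 in edgeR's quasi-likelihood test, adjusted over all 20988 tested genes. These were 11.5% and 12.3% of the members, beside 9.58% and 8.41% of all tested genes. At least 2-fold, 11 rose and 4 fell, or 8.46% and 3.08%, beside 6.78% and 4.62% of all tested genes. The median log2 fold change of the lysosome genes was 0.00, and that of all tested genes was 0.02. The lysosome genes therefore moved in both directions under activin, at shares near those of all genes. The count of lower genes moved with single libraries, to 6 (4.62%, beside 3.94% of all genes) without control library 2 and to 24 (18.5%, beside 9.75%) without activin library 2. Among hydrolases and their activators 9 of 51 rose and 5 fell, among V-ATPase genes 1 of 22 rose and 4 fell, and of the 9 genes of mannose-6-phosphate tagging, sorting receptors and GGA adaptors 3 fell and 0 rose (in edgeR 1 was higher at an unadjusted p under 0.05, and DESeq2 called 0 higher).

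The second comparison set activin + HGF against activin. Here 25 genes rose and 4 fell, or 19.2% and 3.08% of the members, beside 7.41% and 5.45% of all tested genes. At least 2-fold, 5 rose and 3 fell, or 3.85% and 2.31%, beside 3.87% and 4.21% of all tested genes. Most of these increases were thus below 2-fold. The hydrolases and activators held 16 of the 25 increases and 1 of the decreases. Of the 23 coat genes 0 passed edgeR's test in this comparison, while DESeq2 called 1 lower, and 1 higher and 3 lower were at an unadjusted p under 0.05. The count of higher genes rested on single libraries. It was 4 without activin library 1 and 6 without activin library 3, or 3.08% and 4.62%, beside 1.28% and 2.09% of all genes. Without activin library 2 it was 49, or 37.7%, beside 12%. Without activin + HGF library 1, 2 and 3 it was 12, 13 and 13. These were 9.23%, 10.0% and 10.0%, beside 4.35%, 4.43% and 4.72% of all genes. With only the 6 libraries of these groups in the fit, 2 genes rose and 2 fell. These were 1.56% and 1.56% of the members, beside 1.94% and 1.7% of all genes tested in that fit.

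The third comparison set activin + HGF against control. It gave 41 genes higher and 15 lower, or 31.5% and 11.5% of the members, beside 16.4% and 15.0% of all tested genes. At least 2-fold, 23 were higher and 9 lower, or 17.7% and 6.92%, beside 11.3% and 10.2% of all tested genes. The hydrolases and activators accounted for 23 of the 41 higher genes and 3 of the 15 lower ones. The membrane proteins and transporters gave 9 higher and 2 lower of 25, and the V-ATPase 6 higher and 4 lower of 22. When 1 library was left out, 27 to 41 genes were higher and 11 to 14 lower. The 3 comparisons share libraries in pairs, so they are not independent, and their values are set side by side without a test between them.

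The direction of the changes after HGF depended on the scaling. TMM scaling places the bulk of all genes near 0, whereas scaling by library totals alone moved the median of all genes by −0.34 in the HGF step and by −0.27 in activin + HGF against control. Under library totals the median lysosome gene was at −0.07 in the HGF step and at 0.01 against control, beside −0.38 and −0.30 for all genes. Relative to the median gene the lysosome median was higher by 0.31 in the HGF step under both scalings, and by 0.30 and 0.31 against control. Under library totals 8 lysosome genes rose and 10 fell after HGF, or 6.15% and 7.69%, beside 3.30% and 11.5% of all genes. Against control, 31 were then higher and 22 lower, or 23.8% and 16.9%, beside 11.7% and 20.4%. All 8 and all 31 of these higher genes were also among the 25 and 41 called with TMM, and none of the called lysosome genes changed sign. Changes after HGF are therefore given relative to the bulk of all genes.

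**Figure D1:**
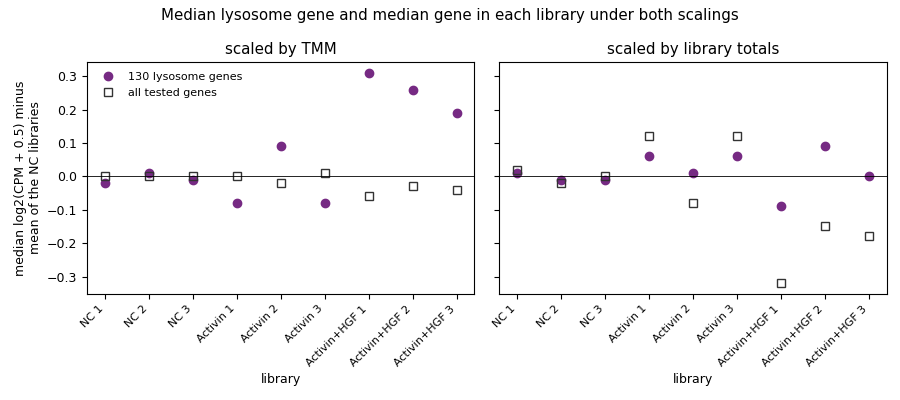
Median over the 130 tested lysosome genes (filled circles) and over all tested genes (open squares) of log2(CPM + 0.5) minus the mean of the control libraries, in each of the 9 libraries. With TMM scaling (left) the lysosome median reached 0.19 to 0.31 in the activin + HGF libraries with all genes near 0, and with library totals (right) it lay between −0.09 and 0.09 there with all genes at −0.32 to −0.15.

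**Figure D2:**
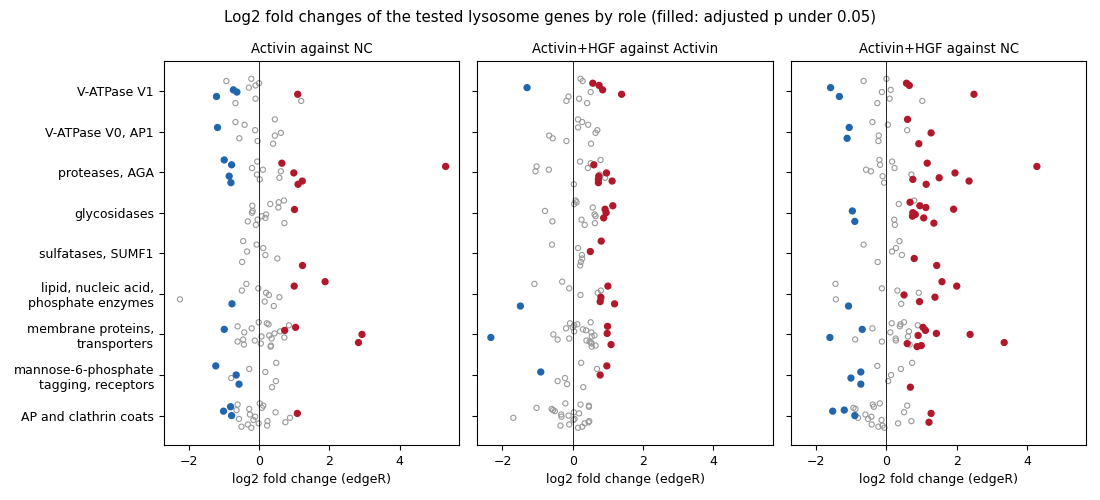
Log2 fold change of each tested lysosome gene by role in the 3 comparisons, with filled points for genes with adjusted p under 0.05 (red higher, blue lower) and open points for the others. In the HGF step the filled points of the 4 hydrolase rows lie to the right except ACP2, 17 points in all, and the coat row holds open points only.

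Among the proteases, CTSB and CTSL rose in both steps. CTSB, cathepsin B, lay at 123, 136 and 124 CPM in control, 163, 451 and 285 CPM in activin and 716, 614 and 625 CPM in activin + HGF libraries. No 2 of these groups overlapped, and the activin libraries spread most. The log2 fold change was 1.23 ± 0.30 log2 units (SE, adjusted p = 0.017) with activin, 1.12 ± 0.30 log2 units (SE, adjusted p = 0.0346) after HGF and 2.35 ± 0.31 log2 units (SE, adjusted p = 0.000433) for activin + HGF against control. CTSL was at 71.4, 65.7 and 68.7 CPM in control, 130.04, 151 and 129 CPM in activin and 317, 233 and 246 CPM in activin + HGF libraries. Its groups were also separate, and the log2 fold change was 0.99 ± 0.17 log2 units (SE, adjusted p = 0.00283), 0.96 ± 0.17 log2 units (SE, adjusted p = 0.00832) and 1.95 ± 0.17 log2 units (SE, adjusted p = 5.35e-05). The calls of CTSL held in every fit that left out 1 library, while that of CTSB was lost without control library 1 or 3 in the activin step and in 5 of 6 such fits in the HGF step, where its log2 fold change then ranged from 0.76 to 1.54.

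CTSD read 97.8, 146 and 94.5 CPM in control, 131, 248 and 127 CPM in activin and 358, 301 and 296 CPM in activin + HGF libraries. The second control and the second activin library were the highest of their groups, control and activin overlapped, and all activin + HGF libraries lay above both. CTSD was higher in activin + HGF than in control by 1.5 ± 0.28 log2 units (SE, adjusted p = 0.00304), whereas neither single step passed the test (adjusted p = 0.181 and 0.055). LGMN, the asparaginyl endopeptidase legumain, was higher against control by 1.16 ± 0.20 log2 units (SE, adjusted p = 0.0021), and CTSC, a dipeptidyl peptidase, by 0.75 ± 0.19 log2 units (SE, adjusted p = 0.0141). AGA, the amidase that cleaves the asparagine link of glycoproteins, rose with activin by 1.11 ± 0.19 log2 units (SE, adjusted p = 0.00315) and stayed at 11.5, 11.1 and 10.7 CPM after HGF, where the difference from activin was 0.03 ± 0.19 log2 units (SE, adjusted p = 0.943).

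A further 4 peptidase genes were lowest in the activin libraries. CTSZ, a carboxypeptidase, lay at 132, 140.2 and 134 CPM in control, 73.03, 96.3 and 67.1 CPM in activin and 129, 115 and 115 CPM in activin + HGF libraries. The activin libraries were all below the 6 others. It fell by 0.78 ± 0.17 log2 units (SE, adjusted p = 0.0106) with activin, rose by 0.60 ± 0.17 log2 units (SE, adjusted p = 0.0427) after HGF, and against control the difference of −0.18 ± 0.17 log2 units (SE, adjusted p = 0.468) did not pass. CTSH, an aminopeptidase, read 32.3, 36.05 and 34.9 CPM in control, 17.4, 23.4 and 16.4 CPM in activin and 35.1, 30.2 and 30.3 CPM in activin + HGF libraries, and CTSA, a carboxypeptidase that also shields lysosomal galactosidase and neuraminidase, read 113, 124 and 106 CPM in control, 57.4, 83.2 and 56.1 CPM in activin and 119, 103 and 106 CPM in activin + HGF libraries. The activin libraries were again below all others in both genes. The log2 fold changes of CTSH were −0.85 ± 0.18 log2 units (SE, adjusted p = 0.0106) and 0.74 ± 0.18 log2 units (SE, adjusted p = 0.0293), and those of CTSA were −0.80 ± 0.19 log2 units (SE, adjusted p = 0.0143) and 0.73 ± 0.19 log2 units (SE, adjusted p = 0.0308). TPP1, a tripeptidyl peptidase, fell by 0.99 ± 0.26 log2 units (SE, adjusted p = 0.0233) with activin, and its value after HGF was 0.79 ± 0.25 log2 units (SE, adjusted p = 0.0666). The activin calls of CTSZ and CTSH held in every fit that left out 1 library and those of CTSA and TPP1 were lost in 4 of 6, while in the HGF step the calls of CTSZ, CTSH and CTSA were each lost in 5 of 6. With library totals as the only scaling, the HGF rises of CTSZ, CTSH and CTSA did not pass edgeR's test (adjusted p = 0.194, 0.11 and 0.0909). CTSZ was then lower than control at −0.45 log2 units (adjusted p = 0.0287), while CTSH and CTSA did not pass (adjusted p = 0.0886 and 0.1). The activin and HGF steps use the same activin libraries, and their values are not independent.

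PSAP read 587, 656 and 604 CPM in control, 1109, 1592 and 994 CPM in activin and 3039.8, 2101 and 2237 CPM in activin + HGF libraries. The 3 groups did not overlap, and activin library 2 and activin + HGF library 1 were the highest of their groups. PSAP rose by 1.00 ± 0.21 log2 units (SE, adjusted p = 0.0091) with activin and by 1.00 ± 0.21 log2 units (SE, adjusted p = 0.0161) after HGF, and activin + HGF stood 4.0-fold above control (log2 fold change 2.0 ± 0.22 log2 units (SE, adjusted p = 0.000153)). Without activin library 1 or 3 the HGF step did not pass, and over the 6 left-out fits it ranged from 0.79 to 1.22. GM2A, the activator protein for GM2 ganglioside breakdown, lay at 45.1, 47.6 and 41.9 CPM in control, 67.2, 76.0 and 58.1 CPM in activin and 148, 104 and 97.7 CPM in activin + HGF libraries. All 3 groups were separate, and the log2 fold change was 0.58 ± 0.19 log2 units (SE, adjusted p = 0.0641), 0.80 ± 0.19 log2 units (SE, adjusted p = 0.0269) and 1.38 ± 0.20 log2 units (SE, adjusted p = 0.000705). The HGF call of GM2A was lost in 3 of 6 fits that left out 1 library. With library totals its HGF rise did not pass edgeR's test (adjusted p = 0.083).

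**Figure D3:**
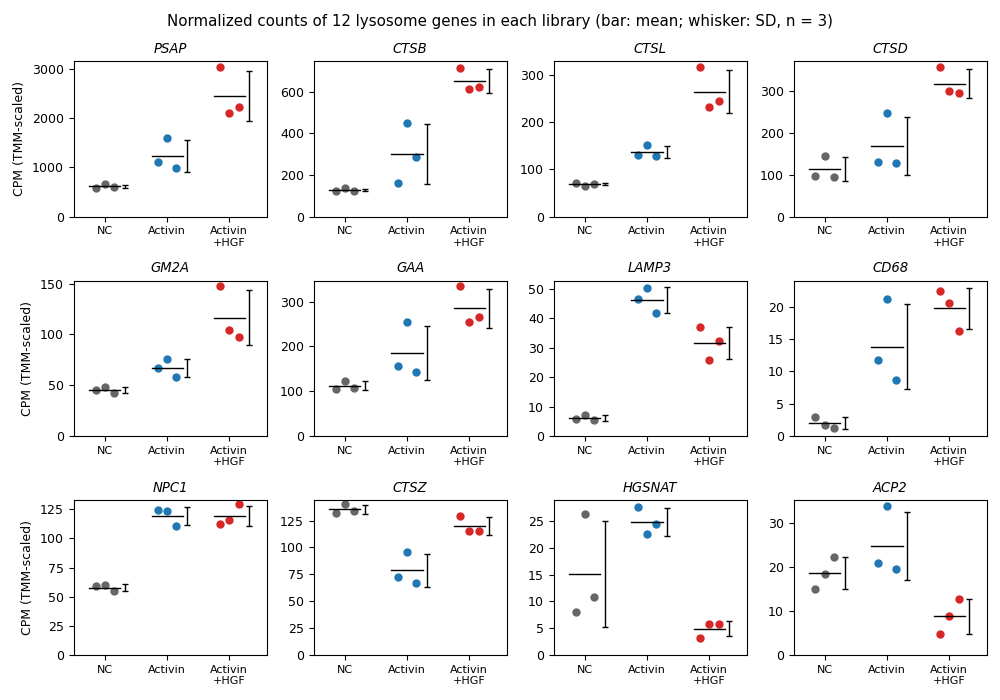
Normalized counts (CPM, TMM-scaled) of 12 lysosome genes in each of the 9 libraries, on axes that start at 0, with a bar at the mean and a whisker of 1 SD for n = 3. PSAP, CTSB, CTSL, GM2A and GAA have means that increase from control to activin to activin + HGF, LAMP3, CD68 and NPC1 rise with activin, CTSZ is lowest with activin, and HGSNAT and ACP2 are lowest with activin + HGF.

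Other lipid enzymes differed from this pattern. SMPD1, acid sphingomyelinase, was at 2.47, 3.15 and 2.99 CPM in control, 9.35, 14.6 and 7.85 CPM in activin and 10.7, 8.61 and 6.60 CPM in activin + HGF libraries. It rose with activin by 1.88 ± 0.30 log2 units (SE, adjusted p = 0.00208) with no overlap, and after HGF its libraries overlapped those of activin (−0.30 ± 0.29 log2 units (SE, adjusted p = 0.526)). ASAH1, acid ceramidase, was at 48.8, 55.4 and 58.1 CPM in control, 31.5, 30.03 and 33.8 CPM in activin and 70.04, 80.8 and 66.7 CPM in activin + HGF libraries. The activin libraries were the lowest and the activin + HGF libraries the highest, with no overlap between any of the groups. ASAH1 fell by 0.77 ± 0.16 log2 units (SE, adjusted p = 0.00824) with activin and rose by 1.19 ± 0.16 log2 units (SE, adjusted p = 0.00408) after HGF, calls that held in every fit that left out 1 library. SMPD1 and ASAH1 act in sequence, releasing ceramide from sphingomyelin and then cleaving it. ACP2, lysosomal acid phosphatase, lay at 14.96, 18.5 and 22.2 CPM in control, 20.9, 33.8 and 19.6 CPM in activin and 4.76, 8.84 and 12.8 CPM in activin + HGF libraries. It was lower after HGF at −1.49 ± 0.35 log2 units (SE, adjusted p = 0.0245) and lower than control at −1.08 ± 0.35 log2 units (SE, adjusted p = 0.0395), calls that were lost without activin library 1 or activin + HGF library 2 and in 4 of 6 fits respectively. ACP2 overlaps NR1H3 on the opposite strand. DNASE2, the acid DNase, was higher after HGF by 0.78 ± 0.20 log2 units (SE, adjusted p = 0.029) and higher than control by 0.94 ± 0.20 log2 units (SE, adjusted p = 0.00508). The HGF call of DNASE2 was lost in 5 of 6 fits that left out 1 library, and its call against control in 0. With library totals its HGF rise did not pass edgeR's test (adjusted p = 0.0954). LIPA, acid lipase, was higher than control by 0.50 ± 0.15 log2 units (SE, adjusted p = 0.0276), a call lost in 4 of 6 fits that left out 1 library.

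Of the 15 tested glycosidases 9 were higher in activin + HGF than in control and 2 were lower. These were 60.0% and 13.3%, beside 16.4% and 15.0% of all tested genes. GAA, which degrades glycogen and had the highest level of the glycosidases at 30.4 FPKM, read 105, 123 and 107 CPM in control, 156, 253 and 143 CPM in activin and 335, 254 and 265 CPM in activin + HGF libraries. Activin library 2 nearly reached the activin + HGF libraries, and the groups did not overlap. GAA was higher than control by 1.35 ± 0.23 log2 units (SE, adjusted p = 0.00189), whereas the single steps of 0.72 ± 0.23 log2 units (SE, adjusted p = 0.0529) and 0.63 ± 0.23 log2 units (SE, adjusted p = 0.0943) did not pass. IDUA, which removes iduronic acid from heparan and dermatan sulfate, was at 6.13, 6.23 and 6.51 CPM in control, 11.03, 12.98 and 13.6 CPM in activin and 31.3, 20.95 and 18.8 CPM in activin + HGF libraries and was higher in all comparisons, by 1.00 ± 0.23 log2 units (SE, adjusted p = 0.0126), 0.92 ± 0.22 log2 units (SE, adjusted p = 0.0272) and 1.91 ± 0.23 log2 units (SE, adjusted p = 0.000271). The groups of IDUA were separate as well. In the HGF step MANBA, beta-mannosidase, rose by 1.14 ± 0.19 log2 units (SE, adjusted p = 0.00743) and GLB1, beta-galactosidase, by 0.88 ± 0.22 log2 units (SE, adjusted p = 0.0282). MANBA read 28.7, 22.1 and 27.3 CPM with activin and 70.6, 54.3 and 47.5 CPM with activin + HGF, with control at 28.8, 29.7 and 30.8 CPM. The activin + HGF libraries stood above all others, and the activin value against control was −0.19 ± 0.19 log2 units (SE, adjusted p = 0.551). MAN2B1, alpha-mannosidase, was higher than control by 1.12 ± 0.24 log2 units (SE, adjusted p = 0.00667). FUCA1, the fucosidase with the next highest level at 17.3 FPKM, did not pass any of the tests, with 0.24 ± 0.15 log2 units (SE, adjusted p = 0.265) against control. HYAL1, a hyaluronidase, was lower than control at −0.97 ± 0.28 log2 units (SE, adjusted p = 0.0258). The HGF calls of IDUA and GLB1 were each lost in 3 of 6 fits that left out 1 library, and that of MANBA in 0. With library totals the HGF rises of IDUA and GLB1 did not pass edgeR's test (adjusted p = 0.0962 and 0.0592). The call of HYAL1 against control was lost in 4 of 6 fits that left out 1 library.

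Of the 8 sulfatase genes, with SUMF1 among them, 1 rose with activin, 2 rose after HGF and 2 were higher than control after HGF, or 12.5%, 25% and 25%, beside 9.58%, 7.41% and 16.4% of all tested genes. ARSA, arylsulfatase A, which acts on sulfatide, rose with activin and lay at 6.79, 6.19 and 7.24 CPM in control, 13.6, 20.1 and 13.2 CPM in activin and 19.4, 17.9 and 17.1 CPM in activin + HGF libraries. The control libraries were below all others, and the log2 fold change was 1.21 ± 0.21 log2 units (SE, adjusted p = 0.00381) with activin and 1.43 ± 0.21 log2 units (SE, adjusted p = 0.000934) for activin + HGF against control. SUMF1, which makes the formylglycine of sulfatase active sites, rose after HGF by 0.81 ± 0.20 log2 units (SE, adjusted p = 0.0301). This call was lost in 5 of 6 fits that left out 1 library. IDS, iduronate sulfatase, spread from 35.2 to 146 CPM within the activin libraries alone and passed no test.

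Among the membrane proteins, LAMP3 and CD68 had the largest increases over control. LAMP3, a LAMP family member named for its presence in dendritic cell lysosomes, was at 5.64, 7.15 and 5.49 CPM in control, 46.8, 50.3 and 41.7 CPM in activin and 36.9, 25.9 and 32.3 CPM in activin + HGF libraries. No group overlapped another. LAMP3 rose 7.60-fold with activin (log2 fold change 2.93 ± 0.21 log2 units (SE, adjusted p = 2.73e-05)) and remained 5.20-fold above control after HGF (2.38 ± 0.20 log2 units (SE, adjusted p = 5.13e-05)), with −0.55 ± 0.19 log2 units (SE, adjusted p = 0.0889) for the HGF step. CD68, a LAMP-like glycoprotein used as a macrophage marker, read 2.99, 1.64 and 1.23 CPM in control, 11.7, 21.2 and 8.69 CPM in activin and 22.6, 20.6 and 16.4 CPM in activin + HGF libraries. The control libraries were below all treated ones, and activin overlapped activin + HGF. CD68 rose with activin by 2.83 ± 0.41 log2 units (SE, adjusted p = 0.00131) and was above control in activin + HGF by 3.35 ± 0.42 log2 units (SE, adjusted p = 0.000336). In the annotation CD68 overlaps another counted gene, AC016876, on both strands, so its counts are uncertain. A list of 8 leukocyte and macrophage markers, 7 of them in the table, summed to 0.32 to 0.62 FPKM in control, 1.12 to 1.55 FPKM in activin and 0.43 to 1.16 FPKM in activin + HGF libraries. Of its defining genes PTPRC was at 0 in 7 of 9 libraries, with 11 and 4 counts in the others, AIF1 was at 0 in 8 and CD163 in 7. Other genes of this list rose with activin. CSF1R held 26, 16 and 23 counts in control, 120, 154 and 115 in activin and 9, 46 and 10 in activin + HGF libraries. It rose by 2.56 ± 0.62 log2 units (SE, adjusted p = 0.0179) with activin and fell by 2.49 ± 0.62 log2 units (SE, adjusted p = 0.0292) after HGF. LYZ held 16, 8 and 19 counts in control, 61, 111 and 116 in activin and 79, 28 and 35 in activin + HGF libraries. It rose by 2.74 ± 0.63 log2 units (SE, adjusted p = 0.0134) with activin and was higher than control by 1.95 ± 0.61 log2 units (SE, adjusted p = 0.0349) after HGF. CD14 and ITGAM passed no test in edgeR. The summed level of 6 fibroblast markers was 2.66 to 2.82 FPKM in control, 4.60 to 6.05 FPKM in activin and 2.88 to 3.65 FPKM in activin + HGF libraries. Most of this sum came from COL1A1, which rose with activin by 1.03 ± 0.16 log2 units (SE, adjusted p = 0.00205). COL3A1 went the other way, with 59, 144 and 212 counts in control and 3, 0 and 0 with activin (edgeR, adjusted p = 0.00111). PDGFRA held 12, 98 and 69 counts in control and 0 in every activin + HGF library (edgeR, adjusted p = 0.0121). The part of these markers in the CD68 result was not tested.

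NPC1, the membrane protein that exports cholesterol from lysosomes, was at 58.9, 59.7 and 54.8 CPM in control, 124, 123 and 110.2 CPM in activin and 112, 116 and 129 CPM in activin + HGF libraries. It rose with activin by 1.04 ± 0.15 log2 units (SE, adjusted p = 0.00112) and its HGF step of 0.00 ± 0.14 log2 units (SE, adjusted p = 0.997) did not pass. Its soluble partner NPC2 read 84.8, 91.3 and 78.9 CPM in control, 52.5, 57.8 and 56.8 CPM in activin and 143, 91.4 and 96.7 CPM in activin + HGF libraries. NPC2 was lowest with activin, where the difference from control of −0.61 ± 0.19 log2 units (SE, adjusted p = 0.0503) did not pass, and it rose after HGF by 0.99 ± 0.19 log2 units (SE, adjusted p = 0.0125). The 2 cholesterol proteins thus had different profiles over the groups, a difference that was not tested. NPC1 overlaps RMC1 on the opposite strand, and whether counting used the strand is not stated in the sources used here.

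The most abundant membrane gene, LAPTM4A at 119.5 FPKM, encodes a small protein of late endosomes and lysosomes. It was at 133, 130.3 and 142 CPM in control, 167, 203 and 180.3 CPM in activin and 502, 273 and 311 CPM in activin + HGF libraries. The groups were separate, with activin + HGF library 1 well above its own group, and the log2 fold change was 0.98 ± 0.22 log2 units (SE, adjusted p = 0.0204) after HGF and 1.42 ± 0.22 log2 units (SE, adjusted p = 0.00118) against control. The HGF call was lost without activin library 1 or 3. LITAF, a regulator of endosomal trafficking, rose with activin by 0.73 ± 0.22 log2 units (SE, adjusted p = 0.0443) and stood 1.11 ± 0.22 log2 units (SE, adjusted p = 0.00415) above control after HGF. CD164, a sialomucin, rose after HGF by 1.09 ± 0.25 log2 units (SE, adjusted p = 0.02). The activin call of LITAF was lost in 5 of 6 fits that left out 1 library, and the HGF call of CD164 in 2 of 6. With library totals the rise of CD164 did not pass edgeR's test (adjusted p = 0.0716). CD63, a tetraspanin of late endosomes with 97.0 FPKM, and LAMP2 were higher than control by 0.59 ± 0.20 log2 units (SE, adjusted p = 0.0457) and 0.90 ± 0.23 log2 units (SE, adjusted p = 0.0144), while LAMP1, the classical lysosome marker, missed the threshold at 0.61 ± 0.21 log2 units (SE, adjusted p = 0.0509). The calls of CD63 and LAMP2 were lost in 5 and 2 of 6 fits that left out 1 library. With library totals neither passed edgeR's test (adjusted p = 0.124 and 0.0703).

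Lower expression in this class was seen for HGSNAT and MCOLN1. HGSNAT, the transferase that acetylates heparan sulfate across the lysosomal membrane, was at 8.12, 26.4 and 10.8 CPM in control, 27.7, 22.5 and 24.4 CPM in activin and 3.29, 5.73 and 5.85 CPM in activin + HGF libraries. The control libraries spread widely and overlapped activin, and the activin + HGF libraries were below all others. HGSNAT fell by 2.33 ± 0.42 log2 units (SE, adjusted p = 0.00936) in the HGF step and was −1.61 ± 0.41 log2 units (SE, adjusted p = 0.0139) against control, calls that held in every fit that left out 1 library. MCOLN1, the TRPML1 cation channel that releases calcium from lysosomes, read 18.2, 18.3 and 16.1 CPM in control, 6.82, 11.6 and 8.25 CPM in activin and 11.2, 9.29 and 12.2 CPM in activin + HGF libraries. It fell by 0.99 ± 0.23 log2 units (SE, adjusted p = 0.0151) with activin and stood at −0.69 ± 0.23 log2 units (SE, adjusted p = 0.0428) against control. The activin call was lost in 4 of 6 fits that left out 1 library and the other in all 6. MCOLN1 overlaps PNPLA6 on the same strand, so some counts may be shared.

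The V-ATPase did not move as a unit. In activin + HGF against control 6 of its 22 genes were higher, 4 were lower and 12 did not pass, with a median log2 fold change of 0.02. The higher and lower shares were 27.3% and 18.2%, beside 16.4% and 15.0% of all tested genes. Isoforms of 1 subunit went opposite ways. ATP6V1C1, the widely expressed C subunit, was at 119, 110.1 and 124 CPM in control, 55.3, 34.7 and 62.3 CPM in activin and 40.8, 47.7 and 51.2 CPM in activin + HGF libraries. ATP6V1C2, its tissue-restricted paralog, was at 2.65, 1.95 and 1.85 CPM in control, 4.50, 6.05 and 3.25 CPM in activin and 11.4, 15.3 and 9.39 CPM in activin + HGF libraries. The control libraries of C1 were above all treated ones, those of C2 were below, and C2 rose again after HGF. C1 fell by 1.21 ± 0.22 log2 units (SE, adjusted p = 0.00423) with activin and was −1.34 ± 0.22 log2 units (SE, adjusted p = 0.00148) against control after HGF. C2 rose by 1.10 ± 0.30 log2 units (SE, adjusted p = 0.0311) with activin and by 1.39 ± 0.30 log2 units (SE, adjusted p = 0.0178) after HGF, to 2.49 ± 0.32 log2 units (SE, adjusted p = 0.00037) against control. As FPKM, C1 averaged 18.1 in control and 5.86 with activin + HGF, and C2 averaged 0.547 and 2.52. ATP6V1C2 overlaps PDIA6 on the opposite strand, and its activin call was lost in 4 of 6 fits that left out 1 library and its HGF call in 3 of 6.

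The isoforms of the E subunit had other profiles. ATP6V1E1 was at 95.8, 96.4 and 90.96 CPM in control, 59.9, 53.5 and 57.7 CPM in activin and 115, 89.3 and 104 CPM in activin + HGF libraries, and it fell by 0.73 ± 0.15 log2 units (SE, adjusted p = 0.00923) with activin, rose by 0.85 ± 0.15 log2 units (SE, adjusted p = 0.00949) after HGF and ended 0.12 ± 0.15 log2 units (SE, adjusted p = 0.582) from control. ATP6V1E2, an isoform known from testis, was at 10.5, 8.39 and 8.55 CPM in control, 6.05, 8.40 and 7.94 CPM in activin and 2.74, 3.01 and 3.37 CPM in activin + HGF libraries. Its activin + HGF libraries were below all others, with −1.30 ± 0.23 log2 units (SE, adjusted p = 0.00917) after HGF and −1.59 ± 0.23 log2 units (SE, adjusted p = 0.000811) against control. The HGF calls of both genes held in every fit that left out 1 library, and the activin call of ATP6V1E1 was lost in 2 of 6. With library totals the HGF rise of ATP6V1E1 did not pass edgeR's test (adjusted p = 0.058), while the fall of ATP6V1E2 did (adjusted p = 0.00539). ATP6V1E2 overlaps RHOQ on the opposite strand. In V0, ATP6V0D1, which couples the sectors, was at 58.4, 66.2 and 63.5 CPM in control, 21.6, 38.5 and 21.1 CPM in activin and 28.5, 31.3 and 30.4 CPM in activin + HGF libraries. It fell by 1.21 ± 0.23 log2 units (SE, adjusted p = 0.0061) with activin and was still at −1.06 ± 0.23 log2 units (SE, adjusted p = 0.00689) after HGF. ATP6V0A2, an a subunit known from the Golgi and endosomes, was lower than control at −1.12 ± 0.21 log2 units (SE, adjusted p = 0.00317). TCIRG1, the a subunit known from osteoclasts, was higher by 0.60 ± 0.18 log2 units (SE, adjusted p = 0.0254). The call of TCIRG1 was lost in 5 of 6 fits that left out 1 library, and that of ATP6V0A2 in 0. The other a subunits, ATP6V0A1 and ATP6V0A4, gave −0.23 ± 0.20 log2 units (SE, adjusted p = 0.422) and −0.22 ± 1.71 log2 units (SE, adjusted p = 0.939), the last at under 0.26 CPM in every library.

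The genes higher than control after HGF also included ATP6V0B of the proton ring at 1.27 ± 0.24 log2 units (SE, adjusted p = 0.00344), the accessory protein gene ATP6AP1 at 0.92 ± 0.25 log2 units (SE, adjusted p = 0.0183), ATP6V1F at 0.65 ± 0.21 log2 units (SE, adjusted p = 0.0367) and ATP6V1G1 at 0.57 ± 0.16 log2 units (SE, adjusted p = 0.0235). ATP6V1F had the highest level of V1 at 110.2 FPKM, and ATP6V0C, the main ring subunit, the highest of V0 at 80.1 FPKM. ATP6V0C did not pass (0.59 ± 0.25 log2 units (SE, adjusted p = 0.0923)). The calls of ATP6AP1, ATP6V1F and ATP6V1G1 against control were lost in 3, 5 and 4 of 6 fits that left out 1 library. With library totals as the only scaling 3 of the 6 higher V-ATPase genes kept their call, ATP6V1C2, ATP6V0B and ATP6AP1, and all 4 lower ones did. The catalytic A subunit ATP6V1A and the B subunit ATP6V1B2 gave −0.26 ± 0.26 and 0.09 ± 0.15 against control (adjusted p = 0.485 and 0.704), and ATP6V1B1, the kidney form of B, stayed at or below 1.40 CPM. ATP6V1D, of the central stalk, fell by 0.63 ± 0.16 log2 units (SE, adjusted p = 0.0199) with activin and was at −0.13 ± 0.16 log2 units (SE, adjusted p = 0.578) after HGF. Its activin call was lost in 5 of 6 fits that left out 1 library. The remaining genes against control were ATP6V1H at 0.00 ± 0.25, ATP6V0E1 at 0.04 ± 0.15, ATP6V0E2 at −0.40 ± 0.22 and ATP6V1G2 at −0.65 ± 0.40 (log2 fold change ± SE), and none passed edgeR's test with TMM scaling in any comparison. With library totals ATP6V0E2 was lower than control at −0.67 log2 units (adjusted p = 0.0279).

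**Figure D4:**
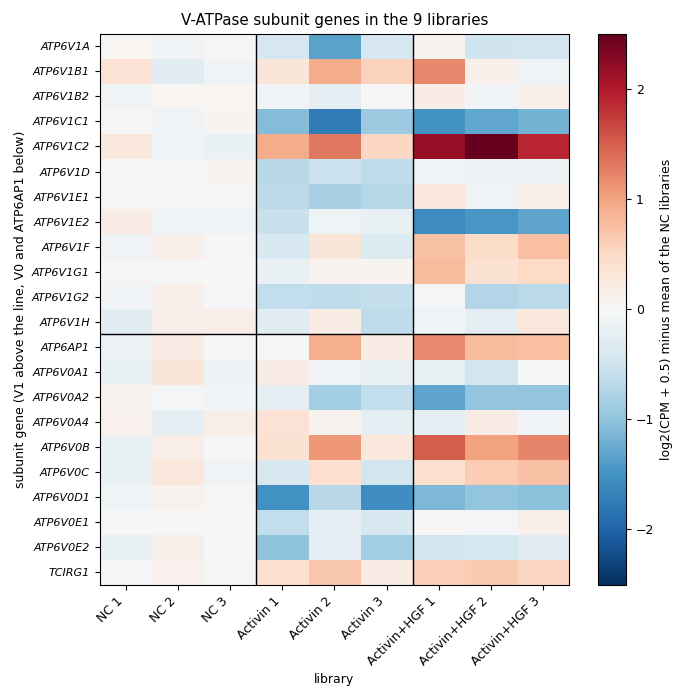
Heat map of log2(CPM + 0.5) minus the mean of the control libraries for the 22 V-ATPase genes (rows) in the 9 libraries (columns), red above and blue below control. ATP6V1C2 is red and ATP6V1C1 blue in all 6 treated libraries. Within their own rows, ATP6V0B is reddest and ATP6V1E2 bluest with activin + HGF.

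Of the 9 genes that tag and sort hydrolases, 3 fell with activin, or 33.3%, beside 8.41% of all tested genes. NAGPA, the uncovering enzyme that exposes mannose-6-phosphate, was at 10.3, 12.9 and 13.4 CPM in control, 4.46, 7.03 and 4.05 CPM in activin and 9.22, 11.4 and 9.87 CPM in activin + HGF libraries. It fell by 1.23 ± 0.26 log2 units (SE, adjusted p = 0.00825) with activin and rose by 0.97 ± 0.25 log2 units (SE, adjusted p = 0.0333) after HGF, and the activin libraries were below all others. GNPTG, a subunit of the phosphotransferase that starts the tag, fell by 0.65 ± 0.19 log2 units (SE, adjusted p = 0.0433) with activin and rose by 0.78 ± 0.20 log2 units (SE, adjusted p = 0.0294) after HGF. GNPTAB, which holds the catalytic part of that enzyme, was lower than control after HGF at −1.01 ± 0.26 log2 units (SE, adjusted p = 0.0149). IGF2R, the cation-independent mannose-6-phosphate receptor, was at 131, 131 and 133 CPM in control, 153, 171 and 124 CPM in activin and 58.4, 92.4 and 87.7 CPM in activin + HGF libraries. Its activin + HGF libraries were below all others, with −0.91 ± 0.20 log2 units (SE, adjusted p = 0.0195) after HGF and −0.73 ± 0.20 log2 units (SE, adjusted p = 0.0201) against control. The other receptor, M6PR, had the highest level of this class at 17.6 FPKM and spread from 38.0 to 118 CPM over the 9 libraries without passing a test. Of the sorting adaptors GGA2 was lower than control at −0.73 ± 0.15 log2 units (SE, adjusted p = 0.00557) and GGA1 higher by 0.68 ± 0.17 log2 units (SE, adjusted p = 0.0121). The activin call of NAGPA held in every fit that left out 1 library, and its HGF call was lost in 4 of 6. GNPTG lost its call in 5 of 6 such fits in each step. GGA2, which also fell with activin, lost that call in 5 of 6. With library totals the HGF rises of NAGPA and GNPTG did not pass edgeR's test (adjusted p = 0.0904 and 0.0993). NAGPA and GNPTG overlap ALG1 and UNKL on the opposite strand.

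The coat genes carry cargo between the Golgi, endosomes and lysosomes. Against control 2 of 23 were higher and 3 lower after HGF, or 8.70% and 13.0%, beside 16.4% and 15.0% of all tested genes. AP3S1, the small subunit of the AP-3 adaptor and the most abundant coat gene at 145 FPKM, was at 276, 274 and 267 CPM in control, 531, 578 and 631 CPM in activin and 768, 596 and 611 CPM in activin + HGF libraries. The control libraries were below all treated ones. AP3S1 rose with activin by 1.09 ± 0.16 log2 units (SE, adjusted p = 0.00123) and was at 1.27 ± 0.16 log2 units (SE, adjusted p = 0.000304) after HGF. AP1S1 was higher by 1.21 ± 0.36 log2 units (SE, adjusted p = 0.0276), with control libraries at 75.3, 115 and 34.9 CPM. AP4B1 fell by 1.01 ± 0.31 log2 units (SE, adjusted p = 0.045) with activin and stood at −1.53 ± 0.31 log2 units (SE, adjusted p = 0.00467) after HGF, and AP4E1 and AP3M1 were lower than control at −1.20 ± 0.36 log2 units (SE, adjusted p = 0.0282) and −0.90 ± 0.22 log2 units (SE, adjusted p = 0.012). CLTA, a clathrin light chain, fell by 0.81 ± 0.19 log2 units (SE, adjusted p = 0.0147) with activin. The activin calls of AP4B1 and CLTA were lost in 5 and 4 of 6 fits that left out 1 library. Against control the calls of AP1S1 and AP4E1 were each lost in 4 of 6.

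Genes that control lysosomes from outside the set were read from a list of 22 TFE factors and mTORC1 surface genes and a list of 15 genes of lysosome fusion and positioning. TFE3 was at 34.1, 38.2 and 33.8 CPM in control, 55.3, 80.6 and 59.3 CPM in activin and 165, 107 and 100.3 CPM in activin + HGF libraries. All 3 groups were separate, and it rose by 0.88 ± 0.23 log2 units (SE, adjusted p = 0.0231), 0.93 ± 0.23 log2 units (SE, adjusted p = 0.0264) and 1.81 ± 0.23 log2 units (SE, adjusted p = 0.000385). TFEB was at 5.10, 5.95 and 5.18 CPM in control, 7.46, 11.97 and 8.28 CPM in activin and 15.1, 13.7 and 10.9 CPM in activin + HGF libraries, higher by 0.77 ± 0.24 log2 units (SE, adjusted p = 0.0488) with activin and by 1.29 ± 0.24 log2 units (SE, adjusted p = 0.00299) against control after HGF. Both held against control in every fit that left out 1 library, whereas the activin call of TFEB was lost in 5 of 6 such fits, and TFE3 lost its call in 3 of 6 in each single step. MITF was higher than control by 0.92 ± 0.32 log2 units (SE, adjusted p = 0.0479), a call lost in 5 of 6 fits that left out 1 library, and TFEC was at 0 in 6 of the 9 libraries, including all control libraries. The first list gave 2 higher and 0 lower genes with activin, 3 and 0 after HGF and 6 and 4 against control. The higher shares were 9.09%, 13.6% and 27.3%, beside 9.58%, 7.41% and 16.4% of all tested genes, and the lower share against control was 18.2%, beside 15.0%. For the lower genes of this list, edgeR had 3 at an unadjusted p under 0.05 in each step, and DESeq2 called 2 lower with activin and 1 after HGF. LAMTOR5, a Ragulator subunit, rose after HGF by 1.08 ± 0.20 log2 units (SE, adjusted p = 0.0104), as did RHEB, the activator of mTORC1, by 0.66 ± 0.20 log2 units (SE, adjusted p = 0.0496), a call that was lost in 4 of 6 fits that left out 1 library and with RLE scaling. Against control LAMTOR3 was higher by 1.19 ± 0.27 log2 units (SE, adjusted p = 0.00853), while SLC38A9, the arginine sensor of the lysosomal membrane, was lower at −1.26 ± 0.31 log2 units (SE, adjusted p = 0.0112), RRAGB and FNIP2 at −1.12 ± 0.33 log2 units (SE, adjusted p = 0.0261) and −1.12 ± 0.29 log2 units (SE, adjusted p = 0.0154), and MTOR at −1.01 ± 0.21 log2 units (SE, adjusted p = 0.00565). The call of RRAGB was lost in 4 of 6 fits that left out 1 library.

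In the fusion and positioning list 1 gene rose and 3 fell with activin, 2 rose and 0 fell after HGF (1 was lower at an unadjusted p under 0.05, and DESeq2 called 1 lower), and 2 were higher and 4 lower against control. These were 6.67% and 20% with activin, beside 9.58% and 8.41% of all tested genes, 13.3% higher after HGF, beside 7.41%, and 13.3% and 26.7% against control, beside 16.4% and 15.0%. VPS41, a HOPS tethering subunit, was at 62.4, 53.8 and 57.2 CPM in control, 32.5, 21.7 and 32.03 CPM in activin and 25.5, 30.4 and 29.4 CPM in activin + HGF libraries, and the control libraries were above all treated ones. VPS41 fell by 1.01 ± 0.19 log2 units (SE, adjusted p = 0.00587) with activin and was at −1.02 ± 0.19 log2 units (SE, adjusted p = 0.00316) after HGF, and VPS33A, another HOPS subunit, was at −0.97 ± 0.28 log2 units (SE, adjusted p = 0.0375) and −1.10 ± 0.28 log2 units (SE, adjusted p = 0.0142). The activin call of VPS33A was lost in all 6 fits that left out 1 library, and that of VPS41 in 0. STX8, a SNARE of late endosomes, fell by 0.93 ± 0.17 log2 units (SE, adjusted p = 0.00528) with activin and rose after HGF by 0.81 ± 0.17 log2 units (SE, adjusted p = 0.0169). VTI1B rose after HGF by 0.70 ± 0.15 log2 units (SE, adjusted p = 0.0161). PLEKHM1, an adaptor for fusion, rose with activin by 0.81 ± 0.19 log2 units (SE, adjusted p = 0.0158). VAMP8 and VPS11 were lower than control at −0.73 ± 0.18 log2 units (SE, adjusted p = 0.0105) and −0.72 ± 0.20 log2 units (SE, adjusted p = 0.0203), and the call of VPS11 was lost in 4 of 6 fits that left out 1 library.

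Since the TFE factors bind the E-box CACGTG, the promoters were searched for it in RefSeq windows of 300 bases, 250 before and 50 after each start, on GRCh38.p14. The longer form TCACGTGA reads the same on both strands and contains CACGTG. Of 134 members 100 had a window. TCACGTGA was in 12 of them, or 12%, beside 1.18% of 27305 genes with a window. CACGTG was in 26.0% of the members, beside 8.77%. All 12 members with TCACGTGA were tested, and 0 rose and 5 fell with activin (1 was higher at an unadjusted p under 0.05, and DESeq2 called 1 higher), 5 rose and 1 fell after HGF, and 2 were higher and 3 lower against control, with medians of −0.52, 0.56 and 0.03. The 84 tested members without it gave medians of 0.08, 0.27 and 0.37. All 246 tested genes that held it gave −0.18, 0.00 and −0.28, with 13 higher and 34 lower, 22 and 16, and 28 and 62. The higher shares were 0%, 41.7% and 16.7% of the 12 members and 10.7%, 16.7% and 33.3% of the 84. They were 5.28%, 8.94% and 11.4% of the 246 genes and 9.58%, 7.41% and 16.4% of all tested genes. Lower shares of all tested genes were 8.41%, 5.45% and 15.0%. With CACGTG, the 24 tested members that held it gave medians of −0.16, 0.54 and 0.39 and the 72 without it 0.10, 0.26 and 0.32, so against control the members with this shorter form had the higher median and those with the longer form the lower one. These letters are a description of the window and not a measured binding site, and the activin and HGF values share the activin libraries.

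The windows below are those of members with TCACGTGA that passed a test at 2-fold or more, shown from 30 bases before the first motif to at most 30 bases after the last and ending at the start of the gene where that came first, in the direction of transcription. Capitals mark TCACGTGA. GAA holds it at 77 and 32 bases before its start (chr17:80101474-80101580, plus strand). NAGPA holds it at 21 bases (chr16:5033936-5033986, minus strand), ATP6V0D1 at 60 bases (chr16:67481180-67481247, minus strand) and CD164 at 35 bases (chr6:109382468-109382532, minus strand).
GAA: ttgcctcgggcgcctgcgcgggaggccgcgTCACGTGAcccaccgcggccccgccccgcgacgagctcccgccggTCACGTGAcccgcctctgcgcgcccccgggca
NAGPA: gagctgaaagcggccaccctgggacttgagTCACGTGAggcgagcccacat
ATP6V0D1: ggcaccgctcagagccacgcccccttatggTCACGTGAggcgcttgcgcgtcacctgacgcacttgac
CD164: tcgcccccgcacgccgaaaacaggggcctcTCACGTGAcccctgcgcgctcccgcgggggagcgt

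These 4 genes did not share a profile. The log2 fold changes with activin and after HGF were 0.72 and 0.63 for GAA, which did not pass in either step, and −1.23 and 0.97 for NAGPA. They were −1.21 and 0.15 for ATP6V0D1, where the HGF step did not pass, and −0.43 and 1.09 for CD164, where the activin step did not. MCOLN1 also held the motif, at 42 and 15 bases before its start, and at −0.99 lay just short of 2-fold.

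Several members were near the limit of detection. CTSW, a cathepsin known from lymphocytes, held 0, 0 and 4 counts in control, 68, 54 and 43 counts with activin and 37, 22 and 10 counts with activin + HGF. The treated libraries were all above control (adjusted p = 0.0105 and 0.0161 for activin and activin + HGF against control), and no fold is given because the control held 4 counts in all. CTSW overlaps FIBP on the opposite strand. DNASE2B, PSAPL1, LAPTM5, CTSS, SLC11A1 and ATP6V0A4 stayed under 1 CPM in every library and passed no test. With 3 libraries against 3 an exact permutation test of a single gene cannot go below p = 0.1, so the calls rest on the spread that edgeR shares across genes.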

How the data were processed

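RNA of 9 HCT116 libraries was analysed, in the 3 groups that the titles and treatment tags give. The authors deposited raw read counts of each gene as whole numbers together with FPKM, in which the authors had scaled the same data to library total and gene length. Per the submitters' processing notes, cutadapt 1.9, HISAT2 2.0.4 and StringTie 1.3.4d were used, and the genome build and the strand setting are not given in the sources used here. Of counts from 1 to 40, 35.0% were multiples of 4, where 25% would be even, so counts may not be independent reads. Counts followed FPKM within 1.01-fold over libraries in every tested member with at least 1 FPKM in each library, after 1 common factor per library was removed.

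The fit used edgeR 4.0.16 in R 4.3.3 (filterByExpr, TMM, glmQLFit and glmQLFTest) on all 9 libraries and 20988 genes, with Benjamini-Hochberg adjustment and calls at an adjusted p under 0.05. Alternative fits used DESeq2 1.42.0 and limma 3.58.1. Tables were made with pandas 2.3.3 and numpy 2.4.6 in Python 3.11.15, and plots with matplotlib 3.10.9. The script was tested on simulated data first. Alternatives were other scalings, filters, tests and library subsets. Depth was 57453977 to 77016167 counts per library, and intervals were not computed because the 3 libraries per group set the precision.

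Members, lists and the rule for named genes were chosen with earlier results of these data known. The rule took every V-ATPase gene, per role and comparison up to 4 genes each way at 2-fold or more, the 2 highest by FPKM per role, the 5 smallest adjusted p each way per comparison, the TFE factors and up to 3 called genes each way per context list. LAMP1, LAMP2, TPP1, MCOLN1, CTSC, LIPA, DNASE2 and the low members were named after their values were seen, as were CTSH, CTSA, NPC2, GNPTG, HYAL1, CSF1R and LYZ. Single-gene values of some genes counted here are not reported. Promoter windows came from RefSeq (GRCh38.p14), matched by symbol for 100 of 134 members. Overlaps of genes were read from the coordinates in the table. Not all of them are named above: CTSA (PLTP), GM2A (CCDC69), IDUA (SLC26A1) and LIPA (IFIT1, IFIT2, IFIT3) are among the members that also overlap counted genes on the opposite strand.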

Additional observations from a re-analysis of the deposited data

How the results depend on the processing

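Single-gene calls were refitted with 1 library left out: 16 of 31 called lysosome genes kept their call in all such fits for activin against control, 6 of 29 for the HGF step and 36 of 56 for activin + HGF against control, and 0 changed sign. DESeq2 and RLE scaling lost 0 of these calls. With 1 library left out, activin against control gave 10 to 15 genes higher and 6 to 24 lower, at least 2-fold 7 to 14 and 3 to 8, with a median of −0.06 to 0.08. The HGF step gave 4 to 49 higher and 2 to 7 lower, at least 2-fold 2 to 16 and 2 to 4, with a median of 0.22 to 0.39. Activin + HGF against control gave 27 to 41 higher and 11 to 14 lower, at least 2-fold 20 to 25 and 7 to 9, with a median of 0.19 to 0.28. The lower count of activin against control was 7, 6 and 10 without control library 1, 2 and 3, and 7, 24 and 8 without activin library 1, 2 and 3.

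With library totals only, the HGF step gave 8 higher and 10 lower, at least 2-fold 1 and 6, and the median was reversed at −0.07. Against control at least 2-fold 14 were then higher, and the median was 0.01. limma on log2(FPKM + 0.1) gave 9 higher and 10 lower in the HGF step, at least 2-fold 0 (by edgeR 5) and 6, with a reversed median of −0.07, and against control 27 higher and 23 lower, at least 2-fold 15 and 15, with a reversed median of −0.03. limma on log2(FPKM + 1) gave 10 and 10 in the HGF step, at least 2-fold 0 higher, with a reversed median of −0.03, and against control 24 lower, at least 2-fold 11 higher, with a reversed median of −0.01. In activin against control it gave 7 higher and 1 lower at least 2-fold. These 3 settings share the scaling by library totals, which lowers all values of the activin + HGF libraries. In a fit of only the 2 groups compared, the HGF step gave 2 higher and 2 lower, at least 2-fold 2 higher. The 2 higher and 2 lower were 1.56% and 1.56% of the members, beside 1.94% and 1.7% of all genes. The cause was not tested. Filters on low counts and counts divided by 4 left every count within 1.5-fold.

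A fit with a replicate block gave 14 higher and 14 lower, 19 and 4, and 42 and 14 in the 3 comparisons. The same-numbered libraries did not deviate together (correlations of −0.0606 to 0.0882 over 9 pairs), so the numbers do not pair them.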
